A study of Mus musculus with 24 samples.

Results

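The integrated stress response and its tRNA-charging arm were examined as 43 mouse genes: activating transcription factor 4 (ATF4) with its reported target genes, and 12 cytosolic aminoacyl-tRNA synthetases with the tRNA exporter Xpot. The members were taken by gene symbol from the array annotation, and all 43 had a probe. Of these, 41 passed the filter on dim probes and were tested among 17215 genes. The amino acid transaminase Bcat1 and the cystine transporter Slc7a11 were not tested, since each of their 4 probes was well above background in at most 3 of 22 animals. In 36 of the 41 tested members every animal was well above background.

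The livers came from male mice of the C57Bl/6J background, 8 weeks old, killed at Zeitgeber time 16 h. The groups were fasted LKO (6 animals), fed LKO (6 animals), fasted LWT (5 animals) and fed LWT (5 animals). LKO stands for a knockout of Ppara in the liver and LWT for its liver wild type, and Ppara encodes the lipid-activated nuclear receptor that drives hepatic fatty acid oxidation in fasting. Fed mice ate Safe 04 chow ad libitum and fasted mice had no food for 24 h. The labels name neither the Cre line nor the deleted part of Ppara. The design text counts 24 mice with 6 in each group, whereas the sample titles give 22 animals, with fasted LWT replicate 1 and fed LWT replicate 3 each on 2 arrays, which were averaged here.

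In the integrated stress response, kinases that sense amino acid shortage, unfolded protein in the endoplasmic reticulum, haem shortage or viral RNA phosphorylate the translation factor eIF2. General translation is then slowed while the Atf4 mRNA is translated more, so ATF4 activity is set largely after transcription. ATF4 with C/EBP partners induces genes for amino acid synthesis, uptake and tRNA charging, further stress factors such as CHOP, and phosphatase and kinase regulators that close the loop. In liver the pathway is known from amino acid deprivation and from mitochondrial and endoplasmic reticulum stress, where it also drives the secreted factors FGF21 and GDF15.

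Levels are log2 signals relative to the 75th percentile of each array, so a difference of 1 is a 2-fold change, and levels of different genes are not comparable because each is read by its own probe. Values after ± are SDs over animals. A gene is said to rise, fall or differ where limma's adjusted p over all 17215 genes was below 0.05. The 75th percentile lay between 444 and 614 intensity units on the 24 arrays, and 50.03 to 58.82% of probes were well above background. Ppara, the targeted gene, averaged 5.07 ± 0.11 in fasted LKO and 5.93 ± 0.13 in fasted LWT, and 4.63 ± 0.37 in fed LKO and 5.29 ± 0.20 in fed LWT. The knockout groups were therefore lower by 0.86 fasted and 0.66 fed on the log2 scale (adjusted p = 5.24e-05 and 0.00651), and whether the probe lies in the deleted part is not given. All 10 hepatocyte markers were tested, with summed signals of 5444 to 5972 in fasted LKO, 5316 to 5742 in fed LKO, 5293 to 5697 in fasted LWT and 4896 to 5738 in fed LWT on the unlogged scale. In these whole-liver extracts, fewer cells of a type and less RNA per cell cannot be told apart.

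One library stood apart. Fed LKO replicate 3 lay at 57.2 on the third principal component of all genes, against -17.0 to -4.64 in the other 5 fed LKO animals. Results that include the fed LKO group are given with it. The members whose calls changed without it are named below, some of them with both values.

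Many of the members are reported targets of ATF4 through a composite ATF4 and C/EBP element, and its core TGATGNAA was searched on both strands in RefSeq promoter windows (build GRCm38.p6), which hold 250 bases before and 50 after each start. Of 37 members with a window, 14 (37.8%) held the core, against 3.97% of all 32851 windows and 4.51% of 27025 genes. Windows for Eif4ebp1, Slc7a5, Cars, Lars, Nars and Wars were not used here. The 8 stretches below lie upstream of the start and show the core in capitals, either as TGATGNAA or as its reverse complement TTNCATCA, for 4 members that differed upward in fasted LKO livers (Atf3, Nupr1, Chac1, Pck2), 1 that differed downward (Vldlr) and 3 that did not differ there (Asns, Aars, Tars).
Atf3: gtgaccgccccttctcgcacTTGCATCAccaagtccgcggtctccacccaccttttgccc
Nupr1: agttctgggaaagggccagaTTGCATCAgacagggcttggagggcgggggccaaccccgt
Chac1: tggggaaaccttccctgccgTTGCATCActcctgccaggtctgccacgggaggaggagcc
Pck2: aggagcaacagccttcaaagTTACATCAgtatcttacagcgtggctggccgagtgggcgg
Vldlr: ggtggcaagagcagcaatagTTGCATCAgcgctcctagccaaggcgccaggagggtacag
Asns: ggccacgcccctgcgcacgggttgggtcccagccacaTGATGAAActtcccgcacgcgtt
Aars: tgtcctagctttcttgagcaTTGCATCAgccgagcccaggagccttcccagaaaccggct
Tars: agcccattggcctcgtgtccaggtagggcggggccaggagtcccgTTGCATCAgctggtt
Each sequence reads 5′ to 3′ on the gene's own strand. The stretches are chr1:191183404-191183463 on the minus strand for Atf3, chr7:126625541-126625600 on the minus strand for Nupr1, chr2:119351029-119351088 on the plus strand for Chac1 and chr14:55540143-55540202 on the plus strand for Pck2. Those of the others are chr19:27216800-27216859 on the plus strand for Vldlr, chr6:7693210-7693269 on the minus strand for Asns, chr8:111033710-111033769 on the plus strand for Aars and chr15:11399659-11399718 on the minus strand for Tars. Atf3 and Nupr1 hold the same 8 letters at the same distance, at positions -110 to -103 from the start. Pycr1, Slc7a11 and Gars also held the core before the start, Slc7a11 in 2 copies, and Trib3, Iars and Yars held it after the start. Between fasted LKO and fasted LWT, 5 of 13 tested members with the core were higher and 1 lower, and 9 of 22 tested members without it were higher and 2 lower. Over all genes tested, 18.1% were higher and 19.9% lower. A match is a description of these letters and shows no binding.

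With fasting, members moved in both directions, and for 12 of them the change differed between the genotypes. In LKO livers 14 of 41 members rose and 7 fell with fasting, against a background of 49.7% of all genes called (23% higher and 26.7% lower). In LWT livers 11 rose and 11 fell, against 44.4% of all genes called (22.8% higher and 21.7% lower). The median member changed by 0.09 in LKO and by -0.13 in LWT on the log2 scale, and the median of all genes by -0.04 and 0.00. The shares of members called, 51.2% in LKO and 53.7% in LWT, were near or somewhat above those of all genes. The fasted and fed animals did not overlap in 13 members in LKO, against 27.3% of all genes, and in 22 members in LWT, against 34.5% of all genes. Large changes made up a larger share: 7 of 41 members (17.1%) changed at least 2-fold with fasting in each genotype, against 6.94% of all genes in each. The 7 in LKO include the dim Stc2, whose fall is shown only to be at least 1.55-fold. Between the genotypes 9 members differed at least 2-fold in fasted livers, against 4.83% of all genes, and the difference of the fasting changes was at least 2-fold for 6, against 3.2%.

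Between the genotypes, 19 of 41 members differed in fasted livers, 16 higher and 3 lower in LKO, against 38% of all genes called (18.1% higher and 19.9% lower). In 17 of 41 members the fasted LKO and fasted LWT animals did not overlap, against 25.3% of all genes. In fed livers 1 member was called, against 3.97% of all genes, and none had groups without overlap, against 3.68%. The fasting change itself, taken as the change in LKO minus that in LWT, differed for 12 members, 10 with a higher and 2 with a lower change in LKO, against 18.3% of all genes (7.71% higher and 10.6% lower). These comparisons share groups, the fasted LKO animals in particular, so their counts are not independent.

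Among the markers of other liver cells, only the endothelial ones moved as a set in the contrast of the fasted groups. All 8 endothelial markers were lower in fasted LKO than in fasted LWT, with a median of -0.43, and their summed signal was 29.9 to 37.1 in fasted LKO, 36.1 to 51.1 in fed LKO, 42.7 to 64.2 in fasted LWT and 38.8 to 48.8 in fed LWT. None of 10 hepatocyte markers differed between fasted LKO and fasted LWT by limma, also at an unadjusted p below 0.05, and 1 of 8 macrophage markers was lower. At an unadjusted p below 0.05 by limma, 1 macrophage marker was higher and 1 lower, and 1 of 8 stellate markers was lower. At the same threshold 1 of 6 lymphocyte, 1 of 6 neutrophil and 1 of 6 cholangiocyte markers were higher and none was lower. Summed neutrophil markers (6 of 8 tested) were 2.77 to 3.49 in fasted LKO and 2.47 to 3.14 in fasted LWT. Over all genes, 18.1% were higher and 19.9% lower in fasted LKO than in fasted LWT. The part of these cell types in the members' differences was not tested.

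**Figure D1:**
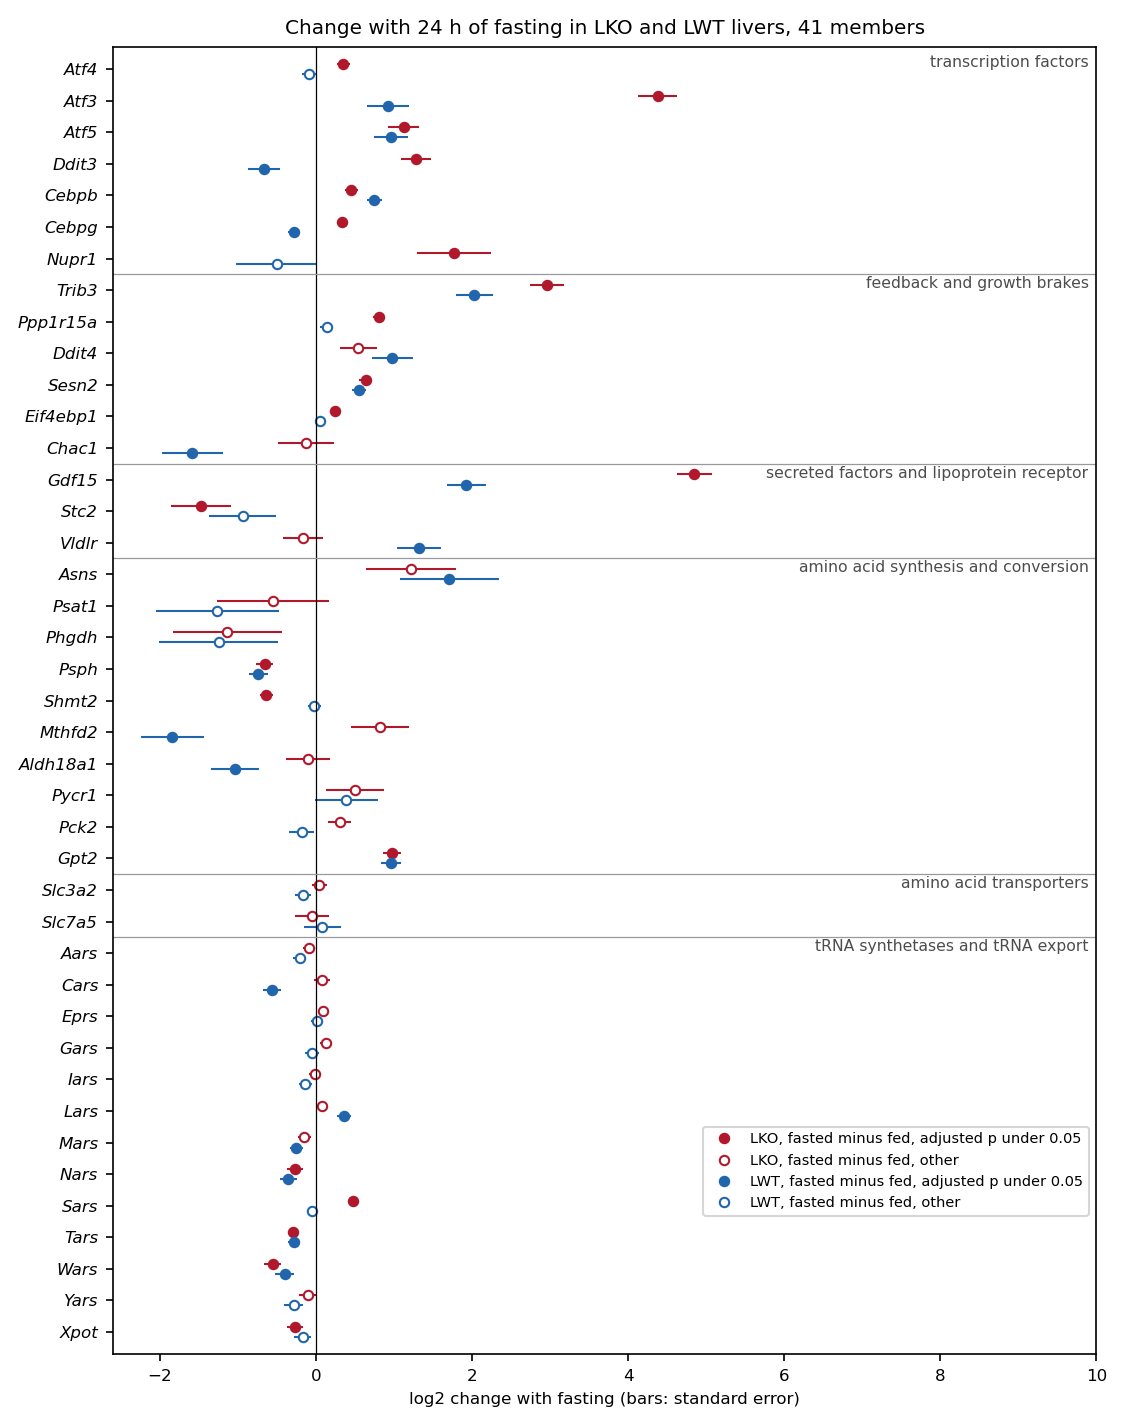
Log2 change with 24 h of fasting for the 41 tested members, ordered by role, in LKO (red) and LWT (blue) livers. Points are limma estimates over 6 fasted and 6 fed LKO animals and 5 fasted and 5 fed LWT animals, bars are standard errors, and filled points have an adjusted p below 0.05. Atf3 and Gdf15 lie farthest right in LKO (4.38 and 4.85), Ddit3, Cebpg and Mthfd2 lie on opposite sides of 0 in the 2 genotypes, and the synthetases stay within 0.6 of 0.

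All 7 transcription factors rose with fasting in LKO livers, with a median change of 1.12, whereas in LWT livers 3 rose, 2 fell and the median was -0.08. Over all genes, 23% rose in LKO, and 22.8% rose and 21.7% fell in LWT. Atf4, the central factor, was between 6.09 and 6.56 (median 6.28) in fasted LKO and between 5.71 and 6.12 (median 5.98) in fed LKO. In LWT it was 5.79, 5.86, 5.60, 5.63 and 5.63 in the 5 fasted animals and 5.90, 5.94, 5.70, 5.59 and 5.81 in the 5 fed animals. Every fasted LKO animal was thus above every fasted LWT animal, whereas fed and fasted LWT animals overlapped. Atf4 mRNA rose by 0.36 with fasting in LKO (adjusted p = 0.000973), its change in LWT was -0.08 (adjusted p = 0.469), and the difference of the 2 changes was 0.44 (adjusted p = 0.014). The size was 1.51-fold between fasted LKO and fasted LWT (log2 0.60, SE 0.08, adjusted p = 1.27e-05).

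Atf3, a stress-induced factor of the same bZIP family that is itself a target of ATF4, showed the largest difference of all members between the genotypes in fasted livers. It was between 0.99 and 1.91 (median 1.53) in fasted LKO and between -3.50 and -2.17 (median -2.99) in fed LKO. In LWT it was -2.16, -2.10, -1.91, -3.25 and -1.70 fasted and -3.24, -2.98, -3.19, -3.69 and -2.63 fed. All 6 fasted LKO animals stood above all 16 others, and the fasted and fed LWT animals overlapped. The rise with fasting was 20.8-fold in LKO (log2 4.38, SE 0.25, adjusted p = 4.89e-11) and 1.9-fold in LWT (log2 0.93, SE 0.27, adjusted p = 0.00905), a difference of 3.45 (SE 0.37, adjusted p = 3.03e-06). The probe lies at chr1:192994547-192994606 in the array annotation (mm9), which gives no exon.

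Ddit3 encodes CHOP, a factor downstream of ATF4 that is known for promoting cell death in prolonged stress. It moved in opposite directions with fasting. Ddit3 was between 0.53 and 1.44 (median 0.75) in fasted LKO and between -0.92 and 0.08 (median -0.48) in fed LKO, and the 2 groups did not overlap. In LWT it was -0.81, -0.73, -1.001, -1.14 and -0.93 fasted and 0.22, -0.60, -0.03, -0.38 and -0.52 fed, also without overlap. Its change was 1.29 (adjusted p = 9.89e-06) in LKO and -0.66 (adjusted p = 0.0128) in LWT, a difference of 1.95 (adjusted p = 8.53e-05), and fasted LKO was 3.39-fold above fasted LWT. A second Ddit3 probe, not used for the test, gave 0.32 for the change in LKO and 0.94 for the difference of the changes.

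Nupr1, a small stress-induced chromatin protein, was between 0.65 and 2.42 (median 1.59) in fasted LKO and between -0.86 and 2.24 (median -0.61) in fed LKO. In LWT it was -1.04, -1.06, -1.18, -0.82 and -1.13 fasted and -0.73, -0.68, -0.72, -1.62 and 1.04 fed. All 6 fasted LKO animals lay above the 5 fasted LWT animals, and a single fed LKO animal, replicate 3 at 2.24, and a single fed LWT animal, replicate 5 at 1.04, lay among the fasted LKO values. Fasted LKO was 6.21-fold above fasted LWT (log2 2.63, SE 0.49, adjusted p = 0.000279). The change in LKO was 1.77 (adjusted p = 0.00373) with all animals and 2.25 (adjusted p = 2.26e-05) without fed LKO replicate 3, and the difference of the changes was 2.27 (adjusted p = 0.028) and 2.75 (adjusted p = 0.000638). Without fed LWT replicate 5 that difference was 1.88 and was no longer called (adjusted p = 0.054). With no filter on dim probes it was 2.27 and was also not called (adjusted p = 0.0523). A second Nupr1 probe gave much smaller values, 0.61 for the change in LKO and 0.04 between fasted LKO and fasted LWT, so the size for this gene depends on the probe.

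Cebpg, a dimer partner of ATF4, averaged 1.80 ± 0.09 in fasted LKO, 1.47 ± 0.16 in fed LKO, 1.12 ± 0.08 in fasted LWT and 1.40 ± 0.08 in fed LWT. It also rose in LKO and fell in LWT, by smaller amounts: its change was 0.34 (adjusted p = 0.000311) in LKO and -0.28 (adjusted p = 0.00422) in LWT, a difference of 0.61 (adjusted p = 0.000279). Atf5, which is induced in mitochondrial stress, averaged 7.90 ± 0.28 in fasted LKO, 6.77 ± 0.41 in fed LKO, 7.50 ± 0.16 in fasted LWT and 6.53 ± 0.49 in fed LWT. It rose in both genotypes, by 1.12 in LKO and 0.96 in LWT. The difference of its changes was 0.16 with a 95% interval of -0.41 to 0.73. Cebpb, a partner of ATF4 that is also induced by fasting hormones, averaged 5.67 ± 0.10 in fasted LKO, 5.21 ± 0.18 in fed LKO, 5.93 ± 0.15 in fasted LWT and 5.18 ± 0.14 in fed LWT. It rose by 0.46 in LKO and 0.75 in LWT and was the one factor lower in fasted LKO than in fasted LWT (log2 -0.25, SE 0.09, adjusted p = 0.0293). That call was lost with quantile normalization (-0.15, adjusted p = 0.193) and in the authors' deposited values (-0.18, adjusted p = 0.142). It was also lost with no filter on dim probes (adjusted p = 0.0555) and without fasted LKO replicate 1 or fasted LWT replicate 2 or 3 (adjusted p = 0.0592 to 0.0977).

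**Figure D2:**
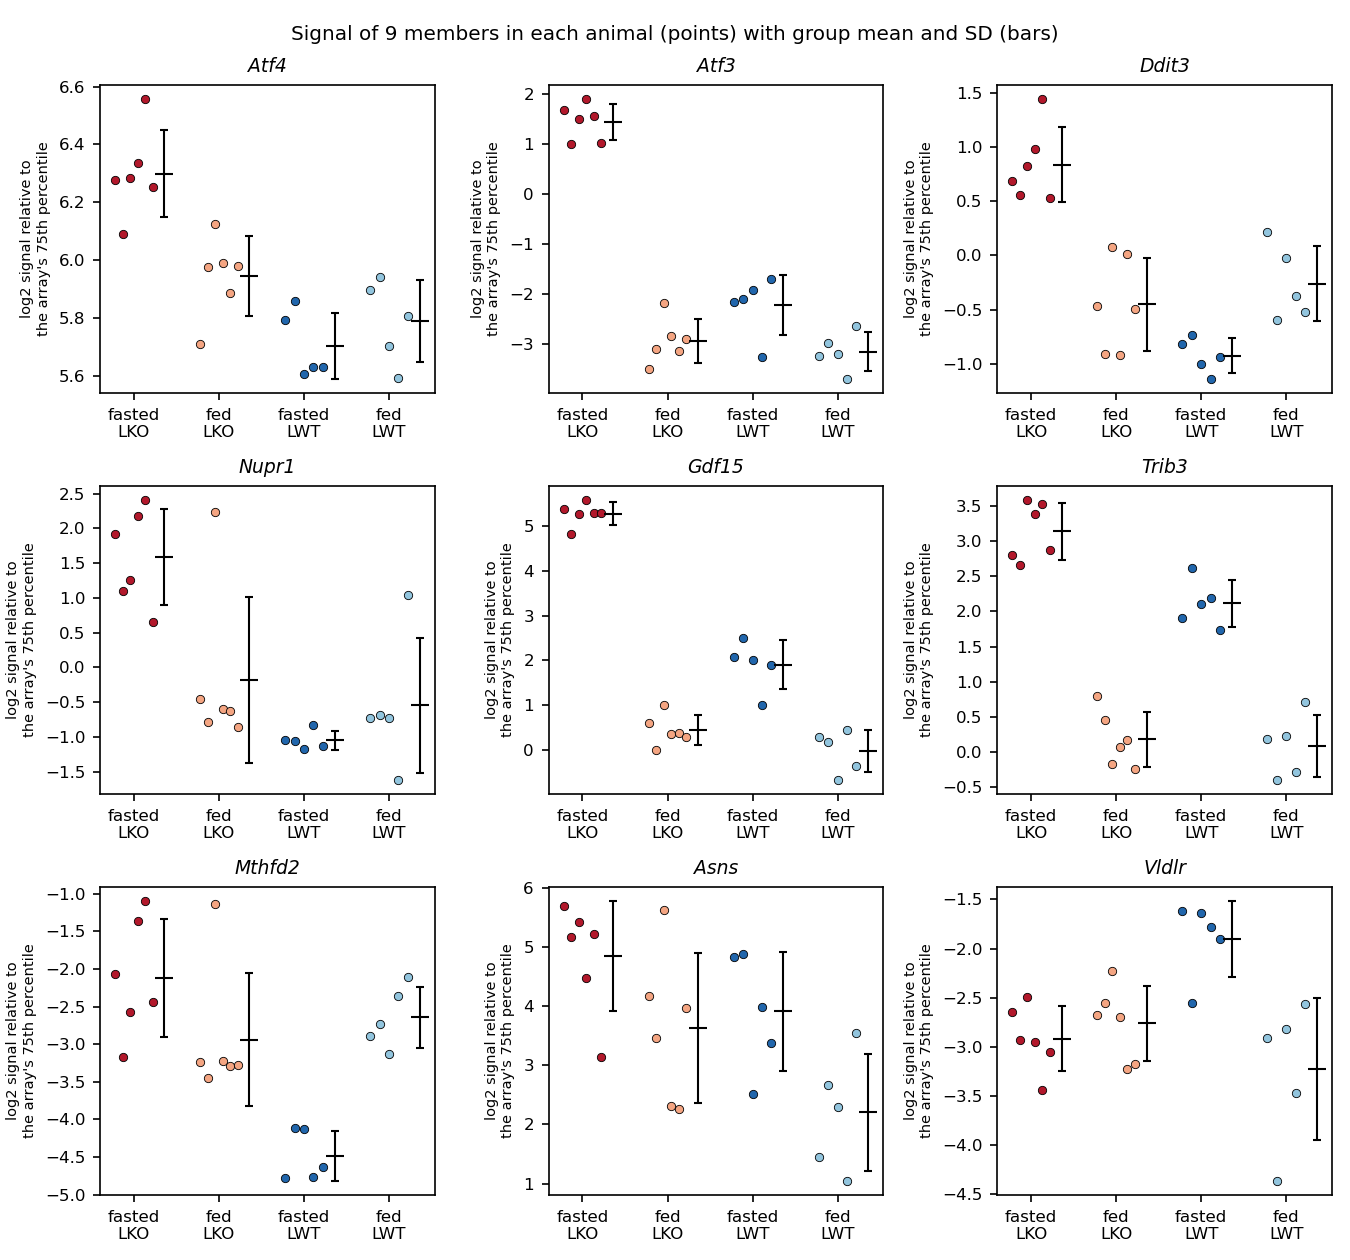
Log2 signal relative to each array's 75th percentile for 9 members, 1 point per animal, in fasted LKO (n = 6), fed LKO (n = 6), fasted LWT (n = 5) and fed LWT (n = 5). Bars give the group mean and SD. Atf3, Ddit3, Gdf15 and Atf4 are highest in fasted LKO, Mthfd2 is lowest in fasted LWT, and Vldlr is highest in fasted LWT.

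The genes that close the loop or brake growth rose in 4 of 6 cases with fasting in LKO and in 3 of 6 in LWT, where 1 fell. Over all genes, 23% rose in LKO, and 22.8% rose and 21.7% fell in LWT. Trib3, a pseudokinase that binds ATF4 and AKT, was between 2.67 and 3.60 (median 3.14) in fasted LKO and between -0.25 and 0.79 (median 0.12) in fed LKO. It was 1.91, 2.63, 2.11, 2.20 and 1.74 in fasted LWT and 0.18, -0.40, 0.23, -0.29 and 0.70 in fed LWT. Fasted animals stood above fed animals in both genotypes, and every fasted LKO animal stood above every fasted LWT animal. The rise was 7.82-fold in LKO (log2 2.97, SE 0.22, adjusted p = 1.53e-09) and 4.09-fold in LWT (log2 2.03, SE 0.24, adjusted p = 9.95e-07). The difference of these changes was 0.93 and missed the threshold (adjusted p = 0.0505), while fasted LKO was above fasted LWT by 1.03 (adjusted p = 0.00136).

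Ppp1r15a encodes GADD34, the subunit that directs phosphatase to eIF2 and ends the response. It averaged 2.40 ± 0.09 in fasted LKO, 1.59 ± 0.13 in fed LKO, 2.03 ± 0.12 in fasted LWT and 1.89 ± 0.16 in fed LWT. Ppp1r15a rose by 0.81 (adjusted p = 2.66e-08) in LKO, its change in LWT was 0.14 (adjusted p = 0.173), and the difference was 0.67 (adjusted p = 0.000314). It was also the 1 member that differed in fed livers, where LKO was lower (log2 -0.30, SE 0.08, adjusted p = 0.0303), and leaving out any of 6 single fed animals ended that call. The call was also lost in the authors' deposited values (-0.26, adjusted p = 0.0788). Sesn2, a sestrin that restrains the growth kinase mTORC1, averaged 0.92 ± 0.08 in fasted LKO, 0.28 ± 0.21 in fed LKO, 0.87 ± 0.08 in fasted LWT and 0.32 ± 0.13 in fed LWT. It rose by 0.64 in LKO and 0.55 in LWT, with a difference of 0.08 with a 95% interval of -0.15 to 0.32. Eif4ebp1, a repressor of cap-dependent translation, averaged 4.73 ± 0.09 in fasted LKO, 4.49 ± 0.09 in fed LKO, 4.49 ± 0.06 in fasted LWT and 4.43 ± 0.11 in fed LWT. It rose by 0.24 (adjusted p = 0.00113) in LKO, and its change in LWT was 0.05 (adjusted p = 0.518).

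Chac1, an enzyme that degrades glutathione, fell with fasting in LWT by 1.58 on the log2 scale (adjusted p = 0.00254), and its change in LKO was -0.12 (adjusted p = 0.803). Chac1 was between 0.41 and 1.99 (median 0.92) in fasted LKO and between -0.32 and 2.55 (median 1.30) in fed LKO. It was -0.02, -0.23, -0.16, 0.32 and 0.12 in fasted LWT and 1.20, 1.72, 1.64, 2.44 and 0.93 in fed LWT. The fasted LWT animals lay below every fed LWT and every fasted LKO animal. Fasted LKO was above fasted LWT by 1.03 (adjusted p = 0.036), a call that leaving out single animals could end. The difference of the changes was 1.46 (adjusted p = 0.0615) with all animals and 1.74 (adjusted p = 0.0107) without fed LKO replicate 3. Ddit4, a brake on mTORC1 also known as REDD1, averaged 5.20 ± 0.30 in fasted LKO, 4.65 ± 0.64 in fed LKO, 4.74 ± 0.26 in fasted LWT and 3.76 ± 0.39 in fed LWT. It rose in LWT (log2 0.98, SE 0.26, adjusted p = 0.00473), and its change in LKO was 0.55 (adjusted p = 0.0653). Fed LKO minus fed LWT was 0.89 for Ddit4 (adjusted p = 0.0503, not called) with all animals, and 1.097 (adjusted p = 0.00413) without fed LKO replicate 3.

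Of the secreted members, Gdf15, a cytokine that lowers food intake through a brainstem receptor, had the largest rise of all members with fasting in LKO. It was between 4.82 and 5.60 (median 5.30) in fasted LKO and between -0.02 and 0.99 (median 0.37) in fed LKO. It was 2.08, 2.51, 2.01, 1.000 and 1.90 in fasted LWT and 0.28, 0.18, -0.68, 0.45 and -0.36 in fed LWT. The 4 groups were ordered with fasted LKO on top and fasted LWT next, neither overlapping any other group, and the 2 fed groups overlapped. The rise was 28.8-fold in LKO (log2 4.85, SE 0.23, adjusted p = 3.73e-12) and 3.8-fold in LWT (log2 1.93, SE 0.25, adjusted p = 2.7e-06). Fasted LKO was 10.4-fold above fasted LWT, and the difference of the changes was 2.92 (adjusted p = 6.99e-06). The probe lies at chr8:73153293-73153352 (mm9).

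Stc2, a secreted glycoprotein induced by endoplasmic reticulum stress, was dim. It averaged -5.91 ± 0.48 in fasted LKO, -4.44 ± 0.97 in fed LKO, -6.12 ± 0.68 in fasted LWT and -5.18 ± 0.57 in fed LWT. It was well above background in 0 of 6 fasted LKO, 4 of 6 fed LKO, 0 of 5 fasted LWT and 1 of 5 fed LWT animals, so its fall with fasting in LKO is only a bound: fasted LKO was at least 1.55-fold lower (adjusted p = 0.0034). This bound sets the mean of all fed animals against the lowest signal that was well above background on each fasted array. Vldlr, a lipoprotein receptor induced by ATF4 in liver and also reported as a target of the PPARA protein, had its highest group mean in fasted LWT. It was between -3.44 and -2.50 (median -2.94) in fasted LKO and between -3.23 and -2.23 (median -2.69) in fed LKO, and -1.62, -2.56, -1.64, -1.78 and -1.90 in fasted LWT and -2.92, -4.37, -2.82, -3.47 and -2.56 in fed LWT. Every fasted LWT animal stood above every fed LWT animal, narrowly for replicate 2, and the fasted LWT animals overlapped with fasted and with fed LKO. Vldlr rose 2.51-fold in LWT (log2 1.33, SE 0.28, adjusted p = 0.000663), its change in LKO was -0.16 (adjusted p = 0.639), and the difference was -1.49 (adjusted p = 0.00998). A second probe gave -0.71 for that difference, 0.33 for the change in LKO and 1.03 for the change in LWT. Between fasted LKO and fasted LWT the second probe gave -0.29, against -1.02 for the probe used, so the size depends on the probe.

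Among the 10 tested enzymes of amino acid synthesis and conversion the directions were mixed. With fasting 1 rose and 2 fell in LKO (30% called, against 49.7% of all genes), and 2 rose and 3 fell in LWT (50%, against 44.4% of all genes). Mthfd2, a mitochondrial enzyme of the folate cycle, showed the widest contrast. It was between -3.17 and -1.09 (median -2.25) in fasted LKO and between -3.45 and -1.14 (median -3.26) in fed LKO, and -4.78, -4.12, -4.13, -4.77 and -4.63 in fasted LWT and -2.90, -2.73, -3.12, -2.36 and -2.10 in fed LWT. Every fasted LWT animal was below every other animal, and 3 of these 5 were well above background. Mthfd2 fell in LWT by 1.84 on the log2 scale (SE 0.40, adjusted p = 0.000883). Its change in LKO was 0.82 (adjusted p = 0.0709) with all animals and 1.18 (adjusted p = 0.00185) without fed LKO replicate 3, which stood at -1.14 while the other 5 fed LKO animals lay between -3.45 and -3.22. The difference of the changes was 2.66 (adjusted p = 0.00193), and fasted LKO was 5.16-fold above fasted LWT.

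Shmt2, the mitochondrial serine hydroxymethyltransferase of the same pathway, averaged 3.76 ± 0.18 in fasted LKO and 4.39 ± 0.10 in fed LKO, against 4.45 ± 0.14 in fasted LWT and 4.48 ± 0.08 in fed LWT. It fell in LKO by 0.63 on the log2 scale (adjusted p = 1.05e-06), its change in LWT was -0.02 (adjusted p = 0.871), and the difference was -0.61 (adjusted p = 0.000937). Aldh18a1, which makes the proline precursor pyrroline-5-carboxylate, averaged -3.04 ± 0.43 in fasted LKO, -2.94 ± 0.61 in fed LKO, -4.21 ± 0.22 in fasted LWT and -3.17 ± 0.65 in fed LWT. It fell in LWT by 1.04 (adjusted p = 0.00914) and was 2.24-fold higher in fasted LKO than in fasted LWT. Pck2, the mitochondrial phosphoenolpyruvate carboxykinase, was 1.75-fold higher in fasted LKO than in fasted LWT (log2 0.81, SE 0.15, adjusted p = 0.000285). Gpt2, an alanine transaminase, averaged 6.30 ± 0.22 in fasted LKO, 5.33 ± 0.30 in fed LKO, 6.26 ± 0.18 in fasted LWT and 5.29 ± 0.05 in fed LWT. It rose in both genotypes, 0.98 in LKO and 0.96 in LWT, and the difference was 0.01 with a 95% interval of -0.34 to 0.36. Psph, the last enzyme of serine synthesis, fell by 0.65 in LKO and 0.74 in LWT on the log2 scale.

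Asns, the asparagine synthetase that is a standard readout of ATF4, varied widely between animals of a group. It was between 3.14 and 5.68 (median 5.19) in fasted LKO and between 2.26 and 5.61 (median 3.71) in fed LKO. It was 4.82, 4.88, 2.51, 3.98 and 3.37 in fasted LWT and 1.45, 2.67, 2.30, 1.04 and 3.55 in fed LWT. Fed and fasted animals overlapped in both genotypes. Asns rose in LWT (log2 1.71, SE 0.64, adjusted p = 0.0345), a call that was lost when any of 6 single LWT animals was left out. Its change in LKO was 1.22 (adjusted p = 0.089) with all animals and 1.62 (adjusted p = 0.0187) without fed LKO replicate 3. Fasted LKO minus fasted LWT was 0.94 and was not called (adjusted p = 0.245). Psat1 and Phgdh, the first enzymes of serine synthesis from glycolysis, passed in no comparison, and their changes in LKO were -0.55 (adjusted p = 0.564) and -1.13 (adjusted p = 0.192). Without fed LKO replicate 3 these were 0.00 (adjusted p = 0.999) for Psat1 and -0.66 (adjusted p = 0.433) for Phgdh. Without fasted LKO replicate 4 the change of Phgdh was -1.68 and was called (adjusted p = 0.0338). The within-group SD was 1.06 for Asns, 1.27 for Phgdh and 1.32 for Psat1 on the log2 scale, whereas the median over all genes was 0.18 and 0.831% of genes exceeded 1.

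The 2 tested transporters passed in no comparison by limma, and 0 of their 10 tests had an unadjusted p below 0.05. Slc3a2, the heavy chain of several amino acid exchangers, averaged 3.37 ± 0.21 in fasted LKO, 3.32 ± 0.18 in fed LKO, 3.18 ± 0.09 in fasted LWT and 3.34 ± 0.12 in fed LWT, and changed by 0.05 (adjusted p = 0.71) in LKO and -0.17 (adjusted p = 0.199) in LWT. Slc7a5, its large neutral amino acid partner, averaged -4.25 ± 0.38 in fasted LKO, -4.20 ± 0.38 in fed LKO, -4.09 ± 0.29 in fasted LWT and -4.17 ± 0.49 in fed LWT, and changed by -0.05 (adjusted p = 0.865) in LKO and 0.08 (adjusted p = 0.807) in LWT. At the 5 or 6 animals of a group, a limma test with no call does not show that levels were equal, and the 95% intervals of these changes in LKO ran from -0.14 to 0.23 for Slc3a2 and from -0.47 to 0.37 for Slc7a5.

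The 12 cytosolic synthetases attach amino acids to their tRNAs. With fasting in LKO 1 rose (Sars) and 3 fell (Nars, Tars, Wars), so 33.3% were called against 49.7% of all genes, with a range of -0.55 to 0.48 and a median of -0.05. In LWT 1 rose (Lars) and 5 fell (Cars, Mars, Nars, Tars, Wars), or 50% called against 44.4% of all genes, with a range of -0.56 to 0.36 and a median of -0.23. By the probe used for the test, no synthetase changed 2-fold in any comparison. A dimmer Aars probe gave 3.06 for fasting in LWT and -2.82 for fasted LKO minus fasted LWT. Wars, the tryptophan enzyme, which interferon also induces, averaged 2.80 ± 0.15 in fasted LKO, 3.35 ± 0.32 in fed LKO, 2.73 ± 0.09 in fasted LWT and 3.13 ± 0.06 in fed LWT. It fell most of the synthetases in LKO, by 0.55 on the log2 scale, and by 0.40 in LWT. Tars, the threonine enzyme, averaged 4.21 ± 0.17 in fasted LKO, 4.50 ± 0.11 in fed LKO, 4.22 ± 0.08 in fasted LWT and 4.50 ± 0.08 in fed LWT. It fell by 0.29 in LKO and 0.28 in LWT. Mars, the methionine enzyme, fell in LWT by 0.25 on the log2 scale and averaged 1.67 ± 0.14 in fasted LKO, 1.81 ± 0.15 in fed LKO, 1.67 ± 0.06 in fasted LWT and 1.91 ± 0.15 in fed LWT. Iars, the isoleucine enzyme, had the smallest change in LKO, -0.01 (adjusted p = 0.912), and averaged 2.47 ± 0.17 in fasted LKO, 2.48 ± 0.13 in fed LKO, 2.38 ± 0.11 in fasted LWT and 2.51 ± 0.09 in fed LWT.

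Between fasted LKO and fasted LWT, 3 of the 12 synthetases were higher (Cars, Eprs, Sars) and none was lower by limma. Of all genes, 38% were called in this contrast, 18.1% higher and 19.9% lower. At an unadjusted p below 0.05 the counts were 3 higher and 1 lower, and the lower one was Lars (-0.19). Sars, the serine enzyme, was between 3.80 and 4.10 (median 3.94) in fasted LKO and between 3.35 and 3.64 (median 3.40) in fed LKO, and 3.49, 3.38, 3.37, 3.42 and 3.36 in fasted LWT and 3.40, 3.45, 3.40, 3.46 and 3.54 in fed LWT. The fasted LKO animals stood above all others. Sars rose in LKO (log2 0.48, SE 0.06, adjusted p = 1.02e-06), its change in LWT was -0.05 (adjusted p = 0.582), and the difference was 0.52 (adjusted p = 0.000312). Cars, the cysteine enzyme, averaged 2.94 ± 0.13 in fasted LKO, 2.87 ± 0.15 in fed LKO, 2.54 ± 0.15 in fasted LWT and 3.10 ± 0.27 in fed LWT. It fell in LWT by 0.56 on the log2 scale (adjusted p = 0.000402), its change in LKO was 0.07 (adjusted p = 0.583), and the difference was 0.63 (adjusted p = 0.00644). Eprs, which charges both glutamate and proline, averaged 4.55 ± 0.13 in fasted LKO, 4.46 ± 0.10 in fed LKO, 4.28 ± 0.15 in fasted LWT and 4.27 ± 0.07 in fed LWT. It was higher in fasted LKO by 0.27 (adjusted p = 0.00598). Xpot, the export receptor that carries tRNAs out of the nucleus, fell in LKO by 0.27 on the log2 scale (adjusted p = 0.0333) and changed by -0.17 (adjusted p = 0.24) in LWT.

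Of 8 other cytosolic synthetases, 1 rose and 4 fell with fasting in LKO, with a range of -0.30 to 0.14, and 1 fell in LWT. Over all genes, 49.7% were called in LKO and 44.4% in LWT. The mitochondrial synthetases, encoded by separate nuclear genes, were lower in fasted LKO than in fasted LWT in 10 of 17 cases and higher in 1, with a median of -0.21, while 3 of the 12 cytosolic synthetases were higher, with a median of 0.10. Over all genes, 18.1% were higher and 19.9% lower between these groups. Lars2, the mitochondrial leucine enzyme, differed by -0.58 (adjusted p = 4.43e-07). Wars2 was the mitochondrial one that was higher (0.45, adjusted p = 0.00011). With fasting, Cars2, the mitochondrial cysteine enzyme, fell by 0.71 in LKO and 0.64 in LWT on the log2 scale. Pars2, the mitochondrial proline enzyme, rose by 0.61 in LWT, and the difference of its changes was -0.48 (adjusted p = 0.0156). For Lars2 the difference of the changes was -0.58 (adjusted p = 0.000146). Aimp1, a scaffold protein of the multi-synthetase complex, rose by 0.52 in LKO and 0.17 in LWT, a difference of 0.36 (adjusted p = 0.00129).

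Upstream of ATF4, 15 genes were tested for the eIF2 kinases, their regulators Impact and Gcn1l1, eIF2, its exchange factor eIF2B and the phosphatase subunit Ppp1r15b. With fasting 5 rose and 2 fell in LKO (46.7% called, against 49.7% of all genes), and 2 rose and 3 fell in LWT (33.3%, against 44.4% of all genes). Eif2ak3 encodes PERK, the kinase that senses unfolded protein. It averaged 1.37 ± 0.22 in fasted LKO and 0.68 ± 0.30 in fed LKO, against -0.16 ± 0.05 in fasted LWT and 0.70 ± 0.15 in fed LWT. Its mRNA rose by 0.69 in LKO and fell by 0.86 in LWT, a difference of 1.55 (adjusted p = 6.04e-06), and the fasted groups did not overlap. Impact, a protein that inhibits the amino acid sensor GCN2, rose by 1.82 in LKO and 0.93 in LWT, a difference of 0.88 (adjusted p = 0.00106). Impact averaged 2.61 ± 0.26 in fasted LKO, 0.79 ± 0.23 in fed LKO, 1.83 ± 0.14 in fasted LWT and 0.90 ± 0.09 in fed LWT. Of the eIF2 subunits, Eif2s2 had a difference of 0.34 (adjusted p = 0.0126), and the kinase gene Eif2ak2, which encodes the viral RNA sensor PKR, was higher in fasted LKO by 0.29 (adjusted p = 0.0362). Phosphorylation of eIF2 was not measured.

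Of 18 tested genes in a list of other reported ATF4 targets, 11 rose and 1 fell with fasting in LKO, and 8 rose and 2 fell in LWT. Of all genes, 23% rose and 26.7% fell in LKO, and 22.8% rose and 21.7% fell in LWT. Slc7a1, a transporter of cationic amino acids, rose by 1.81 in LKO, its change in LWT was 0.17 (adjusted p = 0.657), and the difference was 1.64 (adjusted p = 0.00427). Slc1a5, a glutamine transporter, was higher in fasted LKO than in fasted LWT by 1.32 (adjusted p = 2.61e-08). Slc7a1 averaged -1.34 ± 0.41 in fasted LKO, -3.15 ± 0.68 in fed LKO, -3.27 ± 0.24 in fasted LWT and -3.44 ± 0.31 in fed LWT. Sqstm1, the autophagy receptor p62, rose by 1.47 in LKO and changed by 0.82 (adjusted p = 6.41e-08) in LWT. Got1, the cytosolic aspartate transaminase, rose more in LWT than in LKO, with changes of 1.24 (adjusted p = 5.78e-06) in LKO and 2.30 (adjusted p = 1.13e-08) in LWT and a difference of -1.06 (adjusted p = 0.00681). In fasted livers 7 of the 18 were higher and 3 lower in LKO than in LWT at an unadjusted p below 0.05 by limma. Over all genes, 18.1% were higher and 19.9% lower there at an adjusted p below 0.05. Fgf21, a hepatokine under joint control of PPARA and ATF4, was lower in fasted LKO than in fasted LWT by 2.73 on the log2 scale (adjusted p = 0.000397). It rose with fasting in both genotypes, by 5.53 in LWT. Fgf21 was well above background in 1 of 6 fed LKO animals, which limits the size of its rise in LKO.

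The chaperones and folding enzymes of the ATF6 and XBP1 branches, the other arms of the unfolded protein response, fell with fasting in 9 of 14 cases in LKO and in 13 of 14 in LWT, and none rose at an adjusted or unadjusted p below 0.05 by limma. Their medians were -0.48 in LKO and -0.74 in LWT. Over all genes, 26.7% fell in LKO and 21.7% in LWT. Sdf2l1, a cofactor of the chaperone BiP, averaged 2.14 ± 0.63 in fasted LKO, 2.79 ± 0.83 in fed LKO, 0.86 ± 0.35 in fasted LWT and 2.84 ± 0.29 in fed LWT. Sdf2l1 fell by 1.99 in LWT on the log2 scale, its change in LKO was -0.65 (adjusted p = 0.102), and the difference was 1.34 (adjusted p = 0.0566). Hyou1, a chaperone of the HSP70 family, and Manf, a secreted factor retained in the endoplasmic reticulum, fell by 1.40 and 1.36 in LWT. Edem1, which sends misfolded glycoproteins to degradation, fell by 1.17 in LKO on the log2 scale. In fasted livers 6 of 14 were higher in LKO than in LWT and none was lower, against 18.1% and 19.9% of all genes. At an unadjusted p below 0.05 the counts were 7 and 0. They included Sdf2l1 (1.28, adjusted p = 0.00504), Hyou1 (1.003, adjusted p = 0.000819) and Manf (0.82, adjusted p = 0.00713). The difference of the fasting changes passed for 1 of the 14, Pdia6, a protein disulphide isomerase (0.48, adjusted p = 0.0218) upward and for none downward, against 5 and 1 at an unadjusted p below 0.05. Over all genes, 7.71% passed upward and 10.6% downward.

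**Figure D3:**
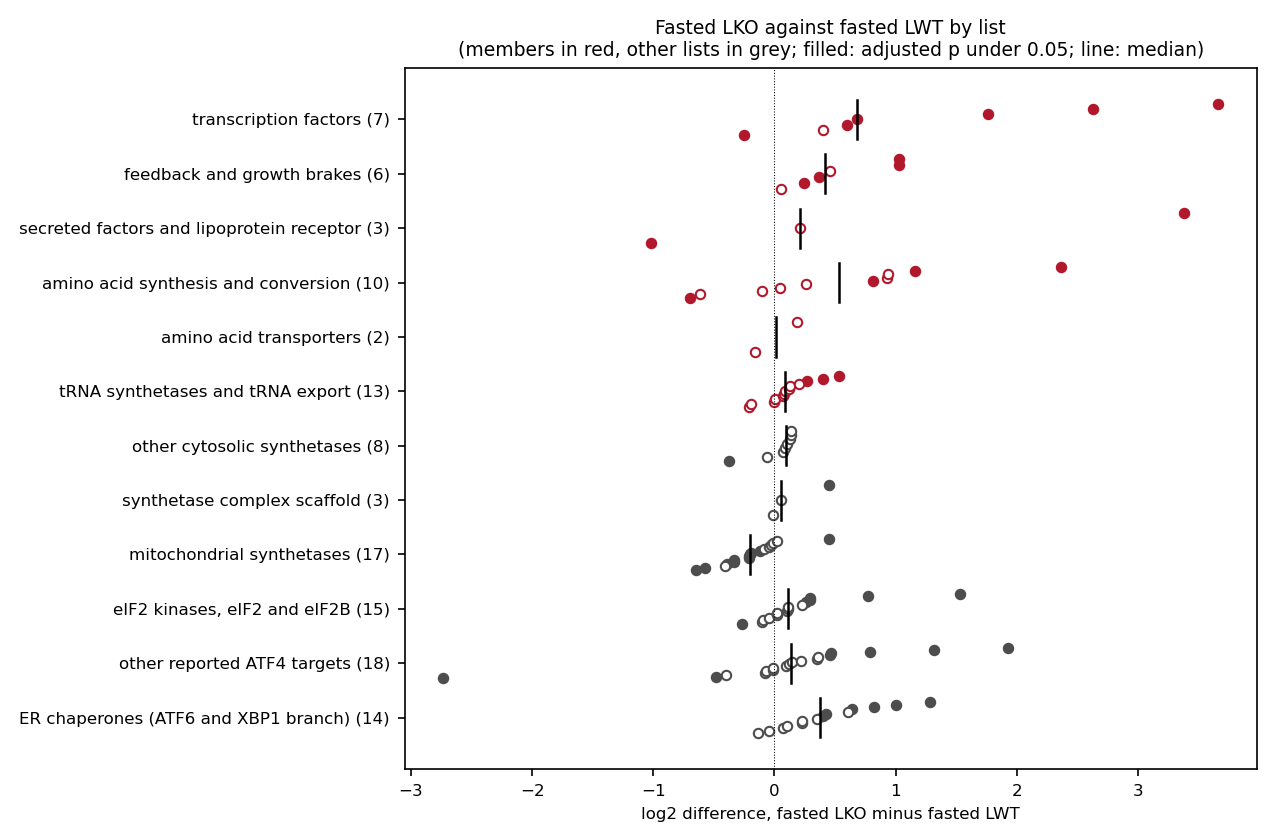
Log2 difference between fasted LKO (n = 6) and fasted LWT (n = 5) livers, 1 point per gene, for the 6 role groups of members (red) and 6 further lists (grey), with the number of genes tested in parentheses. Filled points have an adjusted p below 0.05 and vertical lines are list medians. The transcription factors (median 0.68) extend farthest right, the cytosolic synthetases and Xpot lie near 0 (median 0.09) and the mitochondrial synthetases lie to the left (median -0.21).

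Animals of the same group also differed in the members, and fed LKO replicate 3 most of all. It was the highest fed LKO animal in 30 of 41 members and the lowest in 5, whereas over all genes it was the highest in 24.3% and the lowest in 33.4%. Its mean over the 10 enzymes of amino acid synthesis was 0.97 on the log2 scale, against -0.75 to -0.15 in the other 5 fed LKO animals, and its mean over the 7 transcription factors was 2.98 against 2.05 to 2.18. In the same animal 13 of 14 endoplasmic reticulum chaperones were also the highest of the group, and the mean over 6 neutrophil markers was -0.58 against -2.15 to -1.69. Its 10 hepatocyte markers averaged 8.71, within the 8.58 to 8.74 of the others.

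Another fed animal shared the pattern for the members but not for the chaperones. Fed LWT replicate 5 was the highest of its group in 22 of 41 members and the lowest in 5, and over all genes the highest in 22.4%. Psat1 was 1.15 in this animal, against -3.75 to -1.11 in the other 4 fed LWT animals, and Phgdh was -0.45 against -4.13 to -3.13. Of its 14 chaperones, 10 were the lowest of the group and none the highest. Fasted LKO replicate 5 was the highest fasted LKO animal in 20 of 41 members and in all 14 chaperones, against 21.9% of all genes. Animals also stood low: fasted LKO replicate 2 was the lowest of its group in 19 of 41 members (16.1% of all genes), and fed LWT replicate 4 in 20 of 41 (22% of all genes).

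**Figure D4:**
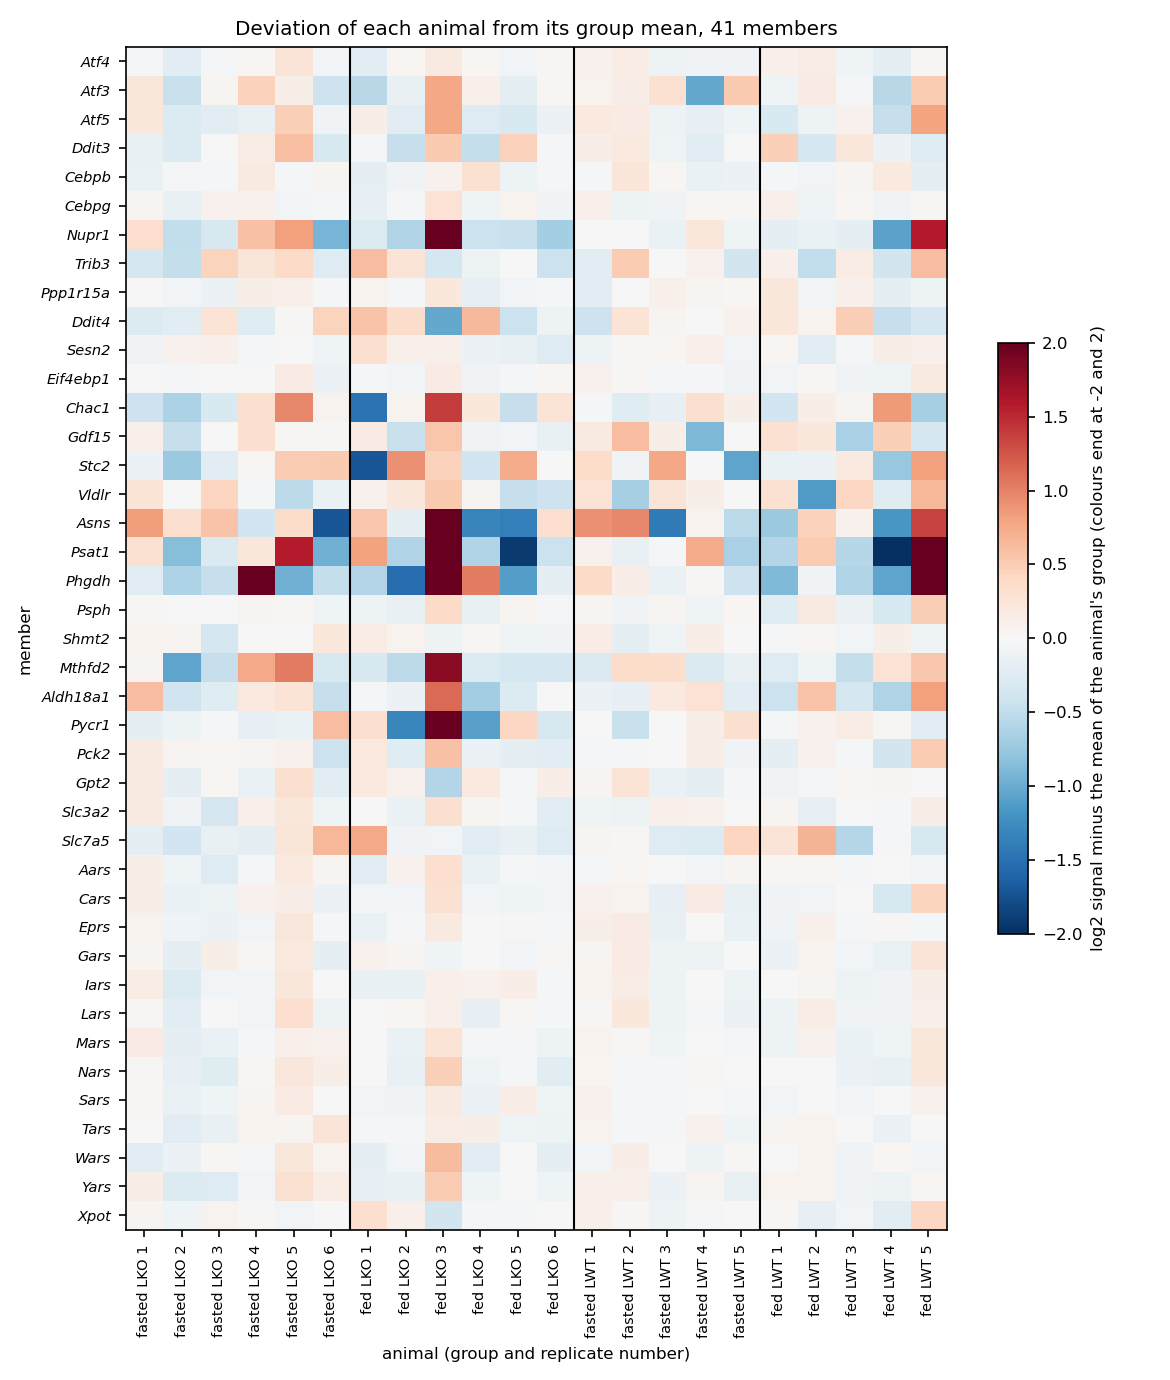
Log2 signal of each of the 41 tested members (rows) in each of the 22 animals (columns) minus the mean of the animal's group. Red is above and blue below the group mean, and colours end at -2 and 2. Fed LKO replicate 3 and fed LWT replicate 5 are red over Nupr1, Asns, Psat1, Phgdh and Aldh18a1 together, and the synthetases vary little.

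After the group means were removed, the level of Psat1, chosen after its values were seen as the member with the largest within-group spread, was set against that of each of the other 40 members over the 22 animals. Pearson's r exceeded 0.6 for 12 of 40 members (30%), against 1.38% of 17200 other genes with a value in every animal. For Nupr1 the relation was r = 0.89 and rho = 0.814 (permutation p = 1e-05 and 1e-05, adjusted p = 0.086 and 0.086). For Pck2 it was r = 0.887 and rho = 0.849 (permutation p = 2e-05 and 2e-05, adjusted p = 0.086 and 0.086). For Asns it was r = 0.731 and rho = 0.696 (permutation p = 0.00029 and 0.00093, adjusted p = 0.151 and 0.478). For Chac1 it was r = 0.133 and rho = 0.067 (permutation p = 0.638 and 0.792, adjusted p = 0.897 and 0.982). These p-values come from 100000 two-sided shuffles of animals within groups, 1e-05 is the smallest they can give, and the adjustment runs over all 17200 genes.

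No gene passed that adjustment (0%, 0 of 40 members, smallest adjusted p = 0.086), while 18 of 40 members and 10.5% of all genes had an unadjusted p below 0.05. With 17200 genes, a gene could pass only where several genes had a permutation p at or near the smallest possible, 1e-05. The number of shuffles therefore limited this outcome, and no conclusion is drawn from it. The 2 animals farthest from the median of Psat1 were fed LWT replicate 5 and fed LKO replicate 3. Without them r was 0.75 for Nupr1, 0.72 for Pck2, 0.56 for Asns and 0.18 for Phgdh, and it exceeded 0.6 for 6 of 40 members and 1.15% of all genes. The relation of Psat1 to Phgdh therefore rests on those 2 animals. With slide effects removed as well, 13 of 40 members exceeded 0.6.

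Leaving out fed LKO replicate 3 changed the members' calls as follows. With fasting in LKO 24 members were called in place of 21, of which 20 were shared: Asns, Mthfd2, Pycr1 and Pck2 were added and Nars was lost. For the difference of the fasting changes 16 were called in place of 12, with all 12 kept and Eif4ebp1, Chac1, Aldh18a1 and Pck2 added, each with a larger change in LKO. Between fasted LKO and fasted LWT, where this animal enters only through the shared estimate of the spread, the same 19 members were called. With fasting in LWT, where it enters in the same way, 24 were called in place of 22, with Aars and Yars added. Between fed LKO and fed LWT 2 were called in place of 1, with Ddit4 added. Within each of the 3 slides, which hold 2 arrays of every group, all 75 calls over the 5 comparisons had the direction of the fit over all animals. The calls were made on these same arrays, so this agreement is not a separate test.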

How the data were processed

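Liver RNA was hybridised to 1-colour Agilent arrays. Per the file headers, the authors' deposited scanner files hold processed spot intensity from Agilent Feature Extraction 10.10.1.1, already background-subtracted. The authors' deposited value table holds log2 signals; its normalization is not given in the sources used here, and it served as an alternative only.

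From each array, log2 of the processed intensity minus its 75th percentile was taken. Outlier spots were left out, repeated spots averaged, and the arrays of 1 animal averaged. Of 46291 probes with a symbol, the 28138 that at least 5 of the 22 animals had well above background were kept, and each gene was read by its brightest kept probe. One limma fit (limma 3.58.1, R 4.3.3) over 17215 genes with 4 group means and no covariate gave 5 contrasts, with Benjamini-Hochberg adjustment over all genes and a threshold of 0.05. SEs are limma's moderated ones. The 95% intervals use these SEs with the normal quantile, so they are somewhat narrower than intervals from limma's t distribution. With 5 or 6 animals a group, the number of arrays limits the precision, and p-values measure the spread between these animals. On simulated data for fasting in LKO, 89% of 100 genes with a log2 change of 1 and 57% of 100 with 0.5 were recovered. There were 11 false calls among the unchanged genes of the 17215 simulated. That simulation changed only these few genes and drew the noise of each gene independently. In the data 49.7% of all genes were called for this contrast, so the simulated shares do not describe the fit itself.

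The members and gene lists were chosen with earlier results of these data known. Values in every group were given for the 5 largest changes in size among called members of each comparison, for the largest and smallest change of each role group, and for Atf4, Ddit3, Asns and Gdf15. Of the other lists the 3 largest called changes per comparison could be named, and Ppara served as the check of the deleted gene. Alternatives were normexp background correction, quantile normalization, the deposited table, no filter on dim probes, the mean of a gene's probes, the slide or the replicate number as a block, fits of the 2 groups compared, each animal left out and, chosen after seeing the data, each array as its own animal. Replicate numbers did not pair animals: the median correlation of 31 same-numbered pairs was 0.014. Slides each held 2 arrays of every group.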

Additional observations from a re-analysis of the deposited data

Results flagged for a closer look

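In 13 of 164 group values of single members (7.93%), an animal lay far from the others of its group by Dixon's test, which chance gives in about 1 of 20 groups. Fed LKO replicate 3 gave 8 of them. Against the other 5 fed LKO animals, Nupr1 stood at 2.24 (others -0.86 to -0.45), Mthfd2 at -1.14 (others -3.46 to -3.22) and Gpt2, which was lower, at 4.75 (others 5.29 to 5.53). In the same animal the synthetases Cars (3.17), Mars (2.09), Nars (3.30), Wars (3.98) and Yars (2.19) were above the others, which reached at most 2.82 for Cars, 1.82 for Mars, 2.84 for Nars, 3.35 for Wars and 1.67 for Yars.

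The other 5 values came from 4 animals. Phgdh stood at -0.67 in fasted LKO replicate 4 (others -4.34 to -3.60) and at -0.45 in fed LWT replicate 5 (others -4.13 to -3.13). Fasted LKO replicate 6 was high for Pycr1 (-3.90, others -4.69 to -4.55) and low for Pck2 (-0.16, others 0.31 to 0.46). Slc7a5 stood at -3.44 in fed LKO replicate 1 (others -4.45 to -4.25).

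For 12 members the fasting change in LKO minus that in LWT passed limma's test of the difference. It was positive for Atf3 (3.45), Gdf15 (2.92), Mthfd2 (2.66), Nupr1 (2.27), Ddit3 (1.95), Ppp1r15a (0.67), Cars (0.63), Cebpg (0.61), Sars (0.52) and Atf4 (0.44), and negative for Vldlr (-1.49) and Shmt2 (-0.61).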

How the results depend on the processing

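Of 75 calls of members over the 5 comparisons, 66 were kept under every alternative run for them, which numbered 31 for each comparison but the difference of the fasting changes, where a fit of only 2 groups is not possible. The number called in fed livers, 1 with the settings of the report, was 2 with normexp, with quantile normalization and with each array as its own animal (chosen after seeing the data), and 0 with no filter on dim probes, with the replicate block and with only the 2 groups compared. In the deposited table the number stayed 1, but Ddit4 (adjusted p = 0.0288) was called there in place of Ppp1r15a (adjusted p = 0.0788). The number called in fed livers ran from 0 to 2 when single animals were left out. At an unadjusted p below 0.05, limma gave 4 members higher and 2 lower there. The median member change in fed livers was 0.03 and turned to -0.027 without fed LKO replicate 3, with a range of -0.027 to 0.041 over single animals left out. Leaving out single animals gave 20 to 24 calls for fasting in LKO, 21 to 24 for fasting in LWT, 17 to 20 between fasted LKO and fasted LWT and 12 to 16 for the difference of the fasting changes.

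Other calls were lost as follows. Asns with fasting in LWT was lost without the filter (adjusted p = 0.0586) and without fasted LWT replicate 1, 2 or 4 or fed LWT replicate 1, 3 or 4 (0.052 to 0.0941). Chac1 between the fasted groups was lost without the filter (0.0619) and without any of 7 animals (0.053 to 0.0893), Cars there with the mean of its probes (0.0863), and Mars in LWT without fasted LWT replicate 3 or fed LWT replicate 2 or 5 (0.0519 to 0.0714). Nars in LKO was lost in the deposited table (0.0728), without the filter (0.0549), with only the 2 groups (0.0837) and without fasted LKO replicate 2 or 3 or fed LKO replicate 3 (0.0701 to 0.0801). Xpot in LKO was lost in the deposited table (0.0551), without the filter (0.0597) and without fasted LKO replicate 2 or 5 or fed LKO replicate 1, 2 or 6 (0.0521 to 0.0947). Aars, which was not called, turned to 0.62 for fasting in LWT, to -0.60 between the fasted groups and to -0.55 for the difference of the changes with the mean of its probes, since a second probe moved. The replicate block changed 1 call, that of Ppp1r15a in fed livers (adjusted p = 0.0904), and the replicate numbers did not pair the animals. Trib3 passed for the difference of the changes in 13 alternatives. Dim members such as Stc2 and Mthfd2 are limited by signal over background.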

Other observations

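One of the probes for Aars, the alanine synthetase, gave a pattern unlike that of the brighter probe used for the test. It lies at chr8:113566835-113566894 in the array annotation (mm9). Its level was -5.01 ± 0.46 in fasted LKO, -5.19 ± 0.59 in fed LKO, -2.18 ± 0.34 in fasted LWT and -5.24 ± 0.38 in fed LWT, and it was well above background in 3 of 6, 3 of 6, 5 of 5 and 1 of 5 of these animals. The brighter probe averaged 4.67 in fasted LKO, 4.76 in fed LKO, 4.56 in fasted LWT and 4.76 in fed LWT. Which transcript the dimmer probe reads was not tested.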
